A study of Mus musculus with 2 samples.

Results

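Genomic imprinting was described here through the chromatin of 38 imprinted mouse genes, listed by name, out of 55413 genes annotated by GENCODE release M21 on the autosomes, X and Y of mm10. Of the 38, 31 are among the 21938 protein-coding genes and 7 are noncoding RNA genes. DNase-seq, which maps open chromatin by where the enzyme DNase I cuts, was carried out on spleen from 10-day-old male B6CASTF1/J mice, the F1 hybrid of C57BL/6J and CAST/EiJ, with no treatment or mutation named in the labels. There was 1 group of 2 libraries, biological replicates 1 and 2, each labelled with its own numbered mouse but with a shared donor identifier. The files used here hold no reads split by parental allele, so every value below is the total over the maternal and paternal copies, and a promoter open on 1 copy cannot be told apart from one open on both.

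Each gene's promoter was taken as the bases within 500 bp of any annotated transcription start site (TSS), and its signal was that of the strongest overlapping peak in the longer of the authors' peak lists, with 130476 peaks in replicate 1 and 95847 in replicate 2. The signal is a depth-scaled density, the scaling constant is not stated in the labels or headers, and the sequencing depth is unknown. Signals were therefore ranked within a library, as the percentile among all genes with a promoter peak there. Promoter peaks in both libraries were present at 11 of 13 spleen and blood marker genes and at 0 of 8 marker genes of other tissues, of which Neurod1 and Syt1 had weak peaks in replicate 1 only (0.210 and 0.221). Among the spleen and blood markers, Cd3e (T cells) had a peak in replicate 1 only (0.439), and Spic (red pulp macrophages) had none. Spleen is a mixture, so a weak total signal from all cells and a strong one from a few cannot be told apart.

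Imprinted genes are expressed mainly or solely from the copy inherited from the mother or from the father. The choice is carried by regions that are methylated in the egg or in the sperm and keep that methylation on the same parental copy after fertilisation. In most imprinted clusters the region methylated in the egg lies over a promoter, which then is active from the paternal copy, and in the H19-Igf2 and Dlk1-Meg3 clusters the region methylated in sperm lies between genes. The zinc finger protein ZFP57 binds a methylated hexamer in these regions, and CTCF binds unmethylated sites that insulate Igf2 from its enhancers. Parental expression, cluster and the position of methylated regions were assigned from textbook knowledge and were not measured here.

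Most imprinted promoters were open, and most of these had a signal below the median of all genes with a promoter peak. A promoter peak was present in both libraries for 25 of the 38 genes (65.8%), against 30.6% of all annotated genes. Among protein-coding genes it was 22 of 31 imprinted genes (71.0%), against 60.7% of all. Replicate 1 had a peak at 29 of the 31, against 67.7% of all protein-coding genes, and replicate 2 had one at 22 of the 31, against 61.3%. Of the 38 genes, 9 had a promoter peak in replicate 1 only, 0 in replicate 2 only and 4 in neither library. With peaks at or above the median signal of all peaks in the library, 15 of the 25 genes still had one in both libraries. The order of the shares depended on how strong a peak had to be. With such peaks it was 13 of the 31 protein-coding imprinted genes (41.9%), against 52.4% of all protein-coding genes. The order also turned when only the most upstream TSS was read, with 16 of 31 (51.6%) for imprinted genes, against 55.2% for all protein-coding genes. With windows of 1000 bp either side of a TSS, 29 of the 38 genes were open in both libraries. Among protein-coding genes it was then 25 of 31 (80.65%), against 62.62% of all.

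The peaks of imprinted promoters ranked low among promoter peaks. The median promoter signal of the imprinted genes with a peak was 1.11 in replicate 1 (34 genes), against 4.82 over all genes with a peak, and 1.76 in replicate 2 (25 genes), against 2.83. The median percentile of these imprinted genes was 29.3 in replicate 1 and 39.2 in replicate 2. The medians of the libraries cover different genes, since 9 genes had a peak in replicate 1 only. A low rank was not particular to imprinted genes. The spleen and blood marker genes had median percentiles of 37.4 in replicate 1 (12 genes) and 31.8 in replicate 2 (11 genes). With promoters without a peak kept at the bottom of a ranking of all protein-coding genes, the median rank of the 31 imprinted ones was the 47.3rd percentile in replicate 1 and the 46.3rd in replicate 2, and 12 of the 31 lay above the median of all protein-coding genes in each library. The promoters were rich in CpG, the dinucleotide that carries the methylation, when each gene was read at its TSS window with the most CpG. The median was 64.5 CpG per 1001 bp window, against 15 over all genes, and 70 for the protein-coding ones, against 50. A gene with more TSSs has more windows to take the highest from, and the part of TSS number in this difference was not tested. At the promoters without a peak, no base had a false discovery rate of the cut rate below 0.05, for 4 imprinted genes in replicate 1 and 13 in replicate 2, against 3.16% and 2.86% of the protein-coding genes without a promoter peak in replicates 1 and 2.

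**Figure D1:**
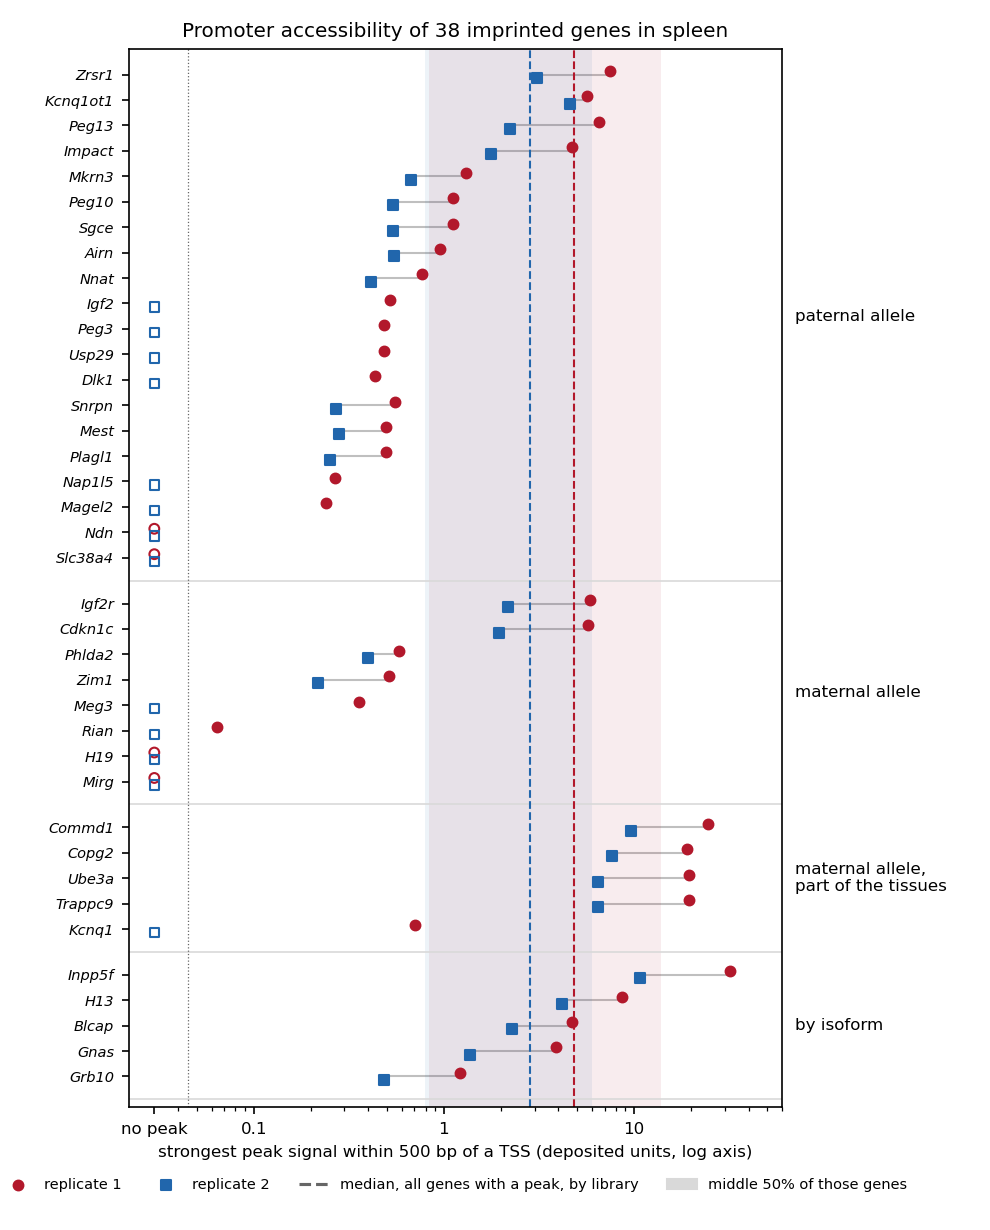
Strongest promoter peak signal of each of the 38 imprinted genes (log axis, deposited units) in replicate 1 (circles) and replicate 2 (squares), grouped by the parental copy expressed, with open symbols at the left for no peak; dashed lines and bands are the median and the middle 50% of all genes with a peak in each library. Most paternally and maternally expressed genes lie left of the medians of 4.82 and 2.83, while Inpp5f, Commd1, Copg2, Ube3a and Trappc9 lie right of them.

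**Figure D2:**
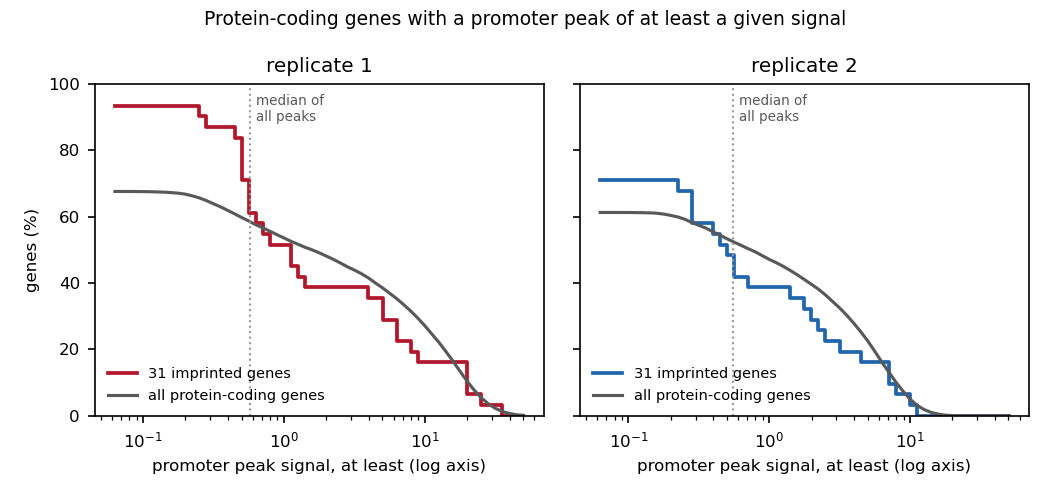
Share of the 31 imprinted protein-coding genes (coloured steps) and of all 21938 protein-coding genes (grey) whose promoter peak has at least the signal on the x axis (log axis), replicate 1 on the left and replicate 2 on the right. The imprinted genes start above the grey line at the weakest signals (29 and 22 of 31 genes) and lie below it at the median promoter signal of all protein-coding genes with a peak (7 and 6 of 31, against 33.8% and 30.7%).

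The median levels by parental expression ran from below 1 to 19.4 in replicate 1. Of the 20 paternally expressed genes 12 were open in both libraries, with a median signal of 0.662 in replicate 1 (18 genes) and 0.542 in replicate 2 (12 genes). Of the 8 maternally expressed genes 4 were, with medians of 0.548 (6 genes) and 1.18 (4 genes). The 5 genes that are maternally expressed only in part of the tissues, and read from both copies elsewhere, had 4 open in both, with medians of 19.4 (5 genes) and 7.06 (4 genes). The 5 genes whose imprinting depends on the isoform were all open in both, with medians of 4.70 and 2.29. These are descriptions of small classes that share peaks and clusters, and no test was made between them.

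Among the paternally expressed genes the strongest promoter by the mean of the libraries was that of Zrsr1, a retrogene of a splicing factor that lies in an intron of Commd1, at 7.47 in replicate 1 and 3.07 in replicate 2. That peak also lies within 500 bp of an internal Commd1 TSS, and the most upstream Zrsr1 start had a weaker peak of 2.01 and 1.28. Kcnq1ot1, the antisense RNA that silences its neighbours on the paternal chromosome, followed with 5.66 in replicate 1 and 4.58 in replicate 2. Peg13, a noncoding RNA gene inside Trappc9, had 6.51 and 2.22. Impact, a regulator of the translational stress response, had 4.70 and 1.76, and 83.5% (replicate 1) and 97.6% (replicate 2) of the 31-mers in its strongest promoter peak were unique in the genome. The part of repeated sequence in that signal was not tested. These 4 were the only paternally expressed genes above 2 in replicate 1.

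Several promoters inside an egg-methylated region were open at a low level. Mest, a hydrolase of mesoderm, had 0.495 in replicate 1 and 0.281 in replicate 2. Plagl1, a zinc finger transcription factor, had 0.495 and 0.251. Snrpn, a spliceosome protein gene of the Prader-Willi region, had 0.555 and 0.272. All 3 lay at or below the 18.4th percentile of promoter signal in replicate 1 and the 6.68th in replicate 2, and all 3 lacked a promoter footprint in replicate 2. Peg10, a retrotransposon-derived gene, and Sgce, a sarcoglycan gene that shares its bidirectional promoter, had 1.11 and 0.540 from the same peak. Airn, the antisense RNA of the Igf2r cluster, had 0.956 and 0.544. Nnat, a proteolipid gene of neurons, had 0.769 and 0.415, and Mkrn3, a ubiquitin ligase gene assigned no such region at its start, had 1.31 and 0.670. Every one of these lay below the median signal of all genes with a peak in its library.

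Some promoter sequences of this class are shown because they carry the hexamer TGCCGC that ZFP57 recognises when methylated. It is in capitals on either strand (as GCGGCA on the reverse). Only RefSeq promoters of 300 bp were read for it. Of the genes with such a region, Grb10, Nnat and Snrpn also carried it there. Airn, Gnas, Inpp5f, Kcnq1ot1, Peg3, Slc38a4, Usp29 and Zrsr1 did not. Among genes assigned no such region, Commd1, Copg2, Igf2, Meg3 and Zim1 carried it. For Inpp5f the promoter read was that of its upstream start, not of the internal start in the methylated region. Sites open in both libraries inside Airn, Gnas, Inpp5f, Kcnq1ot1 and Peg3 did hold the hexamer in their central 200 bp. Impact, Peg10, Peg13 and Sgce had no RefSeq promoter to read. The sequences shown are from GRCm38.p6, 250 bases before to 50 bases after the start, read in the direction of transcription. They are Mest at chr6:30737800-30738099 (plus strand), Nap1l5 at chr6:58907077-58907376 (minus strand) and Plagl1 at chr10:13090582-13090881 (plus strand).
Mest: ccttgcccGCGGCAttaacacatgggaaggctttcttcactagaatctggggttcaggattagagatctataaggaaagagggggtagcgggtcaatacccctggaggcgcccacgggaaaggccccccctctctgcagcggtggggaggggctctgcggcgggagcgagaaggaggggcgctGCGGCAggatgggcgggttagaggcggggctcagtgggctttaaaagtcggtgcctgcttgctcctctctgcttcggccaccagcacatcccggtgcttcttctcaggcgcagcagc
Nap1l5: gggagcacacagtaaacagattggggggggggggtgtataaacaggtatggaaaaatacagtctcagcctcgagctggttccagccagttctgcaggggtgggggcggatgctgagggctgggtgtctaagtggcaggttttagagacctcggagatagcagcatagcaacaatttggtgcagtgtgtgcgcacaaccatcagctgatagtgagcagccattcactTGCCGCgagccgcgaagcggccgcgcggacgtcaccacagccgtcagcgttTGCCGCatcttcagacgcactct
Plagl1: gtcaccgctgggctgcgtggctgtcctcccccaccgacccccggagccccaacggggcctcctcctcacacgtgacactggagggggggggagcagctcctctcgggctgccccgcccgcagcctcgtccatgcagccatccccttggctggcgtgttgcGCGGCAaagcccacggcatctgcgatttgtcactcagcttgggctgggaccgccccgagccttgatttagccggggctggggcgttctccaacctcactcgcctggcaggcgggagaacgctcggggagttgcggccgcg
Mest and Nap1l5 held 2 matches each and Plagl1 held 1, and no footprint overlapped any of them in either library. The sequences of Mest, Nap1l5 and Plagl1 held 3, 1 and 3 footprints in replicate 1. They held 0 in replicate 2, where no overlap was possible.

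For 6 paternally expressed genes a promoter peak was found in replicate 1 only. Igf2, the fetal growth factor, had a peak of 0.518 at 1 of its 6 groups of start sites. Peg3, a zinc finger gene, and Usp29, a protease gene that starts beside it in the opposite direction, shared a peak of 0.484. Dlk1, a membrane protein related to Notch ligands, had 0.435. Nap1l5, a relative of the nucleosome assembly proteins, had 0.266 and Magel2, a Prader-Willi gene, had 0.240. All of these values were below the median of 0.578 of all peaks in replicate 1. Ndn, the Prader-Willi gene necdin, and Slc38a4, an amino acid transporter gene, had no promoter peak in either library, and Slc38a4 had no peak in the gene or within 10 kb. The result for Ndn and Igf2 depended on the annotation: when RefSeq starts were read beside those of GENCODE, Ndn had a peak of 0.428 in replicate 1 and 0.293 in replicate 2, and Igf2 had 0.518 and 0.276. With these starts 27 of the 38 genes were open in both libraries.

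Maternally expressed genes fell into an open pair and a weak or closed remainder. Igf2r, the receptor that takes up and degrades IGF2, had 5.85 in replicate 1 and 2.18 in replicate 2. Cdkn1c, the cell cycle inhibitor p57, had 5.70 and 1.96. Phlda2, a growth-restraining gene of the placenta, had 0.581 and 0.398, and Zim1, a zinc finger gene, had 0.514 and 0.218. Meg3, a noncoding RNA gene, had 0.356 in replicate 1 and no promoter peak in replicate 2. Rian, a host of small nucleolar RNAs, had 0.0638 in replicate 1, at the 0.0478th percentile, and none in replicate 2. H19, a noncoding RNA abundant in fetal tissue, and Mirg, a host of microRNAs, had no promoter peak in either library.

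The genes that are maternally expressed only in part of the tissues had strong promoters in spleen, with 1 exception. Commd1, a regulator of copper and of NF-kappaB, had 24.6 in replicate 1 and 9.68 in replicate 2, at the 92.6th and 91.9th percentiles. Copg2, a coat protein subunit of Golgi vesicles, had 19.02 and 7.70. Ube3a, the ubiquitin ligase gene of Angelman syndrome, which is imprinted in neurons, had 19.4 and 6.43. Trappc9, a subunit of a vesicle tethering complex, also had 19.4 and 6.43, from its own peak. Kcnq1, a potassium channel gene of heart and ear, was the exception, with 0.701 in replicate 1 and no promoter peak in replicate 2.

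The Copg2 promoter is shown because a match to the CTCF consensus, given by name only, overlaps a TGCCGC match and a footprint in both libraries. It lies at chr6:30896745-30897044 of GRCm38.p6, minus strand, from RefSeq, and the capitals mark the overlapping matches.
Copg2: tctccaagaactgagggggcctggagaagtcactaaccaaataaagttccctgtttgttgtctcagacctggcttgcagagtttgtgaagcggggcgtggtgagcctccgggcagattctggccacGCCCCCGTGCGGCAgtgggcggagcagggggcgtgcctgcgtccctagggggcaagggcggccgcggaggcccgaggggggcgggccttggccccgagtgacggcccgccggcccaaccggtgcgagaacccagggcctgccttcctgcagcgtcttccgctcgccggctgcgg
It holds 25 CpG in 300 bases and overlaps the peak of 19.02 in replicate 1 and 7.70 in replicate 2.

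Of the genes with isoform-dependent imprinting, Inpp5f, an inositol phosphatase gene, had the highest promoter signal of all 38 genes, with 32.0 in replicate 1 and 10.8 in replicate 2. That peak is at its upstream start, and the internal start in the egg-methylated region had 3.81 and 1.08. H13, a signal peptide peptidase gene, had 8.62 and 4.20. Blcap, a small membrane protein gene that overlaps Nnat, had 4.70 and 2.29, against 0.769 and 0.415 at Nnat itself. Grb10, an adaptor protein that restrains growth, had 1.21 and 0.482. Its 8 groups of start sites had peaks at 2, and both were below 1.5.

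Gnas, which encodes the alpha subunit of the stimulatory G protein, uses a row of alternative promoters with opposite imprints. The most upstream group of starts, that of the maternally expressed Nesp transcript, reached 0.630 in replicate 1 and had no peak in replicate 2. The next group, that of the paternally expressed XL transcript, had 1.61 and 0.875. The group at exon 1A, also paternal, had 3.20 and 1.37. The group of the Gs alpha start had 3.87 and 1.36. The last group with a peak had 2.01 and 1.34. Of the groups with a peak in either library, the Nesp and XL groups were the lowest in both. In replicate 2 the other 3 groups lay between 1.34 and 1.37. A start between the Gs alpha group and the last group had no peak in either library. Over all its starts Gnas had 61 promoter footprints in replicate 1 and 33 in replicate 2, the most of any of the 38 genes.

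**Figure D3:**
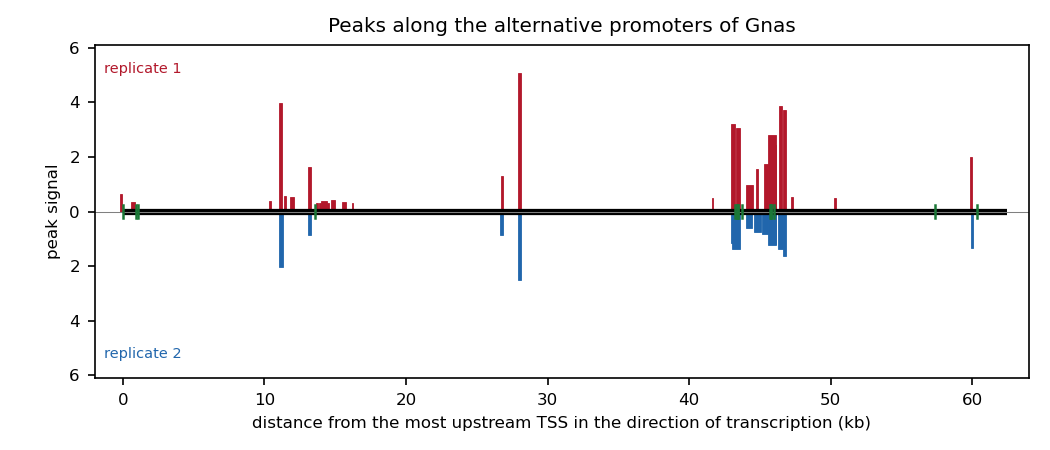
Peaks along Gnas by distance in kb from its most upstream TSS, replicate 1 upward and replicate 2 downward (signal in deposited units); the black bar is the gene and green ticks are TSSs. The Gs alpha group reaches 3.87 in replicate 1 and 1.36 in replicate 2, and the first group 0.630 and no peak.

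Grouped by textbook methylation, 14 of the 18 genes (77.8%) with an egg-methylated region at a TSS were open in both libraries. Of the other 20, 11 (55.0%) were. The shares over the genome were 60.7% of all protein-coding genes and 10.9% of noncoding and other genes, and both classes mix these kinds. The median signals were 1.11 in replicate 1 (17 genes) and 0.542 in replicate 2 (14 genes) for genes with such a region, against 1.31 (17 genes) and 2.29 (11 genes) for those without. These medians cover different genes in each library, since 3 genes with such a region and 6 without had a peak in replicate 1 only. Reading Inpp5f and Gnas only at their starts inside the methylated region could not move the medians of the genes with such a region. At those starts Inpp5f (3.81 and 1.08) and Gnas (3.20 and 1.37) still lay above them. The order of these shares turned under other settings. With the most upstream TSS only, 8 of the 18 genes with such a region were open in both libraries, against 11 of the 20 without. With peaks at or above the library's median signal, 6 of the 18 were, against 9 of the 20.

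With promoter sites included, 147 distinct sites open in both libraries lay inside the 38 genes or within 10 kb, 122 of them inside a gene. The other counts of sites in this paragraph include promoter sites as well. A site in both libraries lay inside 26 of the 31 protein-coding imprinted genes, against 68.5% of all protein-coding genes. In the 10 kb flanks 16 of the 31 had one, against 59.5%. Imprinted genes are long, with a median of 37099 bp for the protein-coding ones, against 17425 bp for all. Per length, they held 5.30 sites per 100 kb, against 4.69 for all protein-coding genes. Trappc9 held the most, with 21 sites, followed by Gnas with 12 and Commd1 with 10.

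The H19 gene and its promoter held no peak in either library, but its upstream region did. Open sites lay 2178, 2618 and 3668 bp upstream of the gene, in the stretch where the sperm-methylated control region of the cluster lies. The nearest, at chr7:142580221-142580420, had 0.964 in replicate 1 and 0.339 in replicate 2. The middle one, at chr7:142580661-142580860, had 1.38 and 0.603, and the farthest, at chr7:142581701-142581920, had 1.04 and 0.498. Each held 1 match to the CTCF consensus within 100 bp of its centre, and a footprint overlapped each match in both libraries. The strongest distal site of the cluster lay elsewhere, 32628 bp from H19 at chr7:142610681-142610860, with 2.52 and 1.30.

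Peg3 and Meg3 were likewise more open beside the promoter, as drawn at 500 bp from a TSS, than at it. A window of 1000 bp takes in both of the sites below. In Peg3 an intronic site 798 bp from the TSS, at chr7:6729481-6729760, had 2.79 in replicate 1 and 0.892 in replicate 2, against a promoter of 0.484 and no peak. In Meg3 an exonic site 773 bp from the nearest TSS, at chr12:109542941-109543140, had 1.41 and 0.624, against a promoter of 0.356 and no peak. Both are shown as the central 200 bp of the plus strand of GRCm38, Peg3 at chr7:6729521-6729720 and Meg3 over the whole site, with a CTCF-matched intronic site of H13, at chr2:152696851-152697050. The capitals mark a match to the YY1 consensus GCCATNTT (reversed) and 2 TGCCGC matches in Peg3, a CTCF match and overlapping matches to the NRF1 consensus GCGCATGCG on both strands in Meg3, and overlapping CTCF matches on both strands in H13.
Peg3: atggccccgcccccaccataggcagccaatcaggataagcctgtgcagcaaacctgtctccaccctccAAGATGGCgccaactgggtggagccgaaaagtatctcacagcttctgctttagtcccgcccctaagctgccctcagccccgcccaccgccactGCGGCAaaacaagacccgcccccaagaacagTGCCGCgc
Meg3: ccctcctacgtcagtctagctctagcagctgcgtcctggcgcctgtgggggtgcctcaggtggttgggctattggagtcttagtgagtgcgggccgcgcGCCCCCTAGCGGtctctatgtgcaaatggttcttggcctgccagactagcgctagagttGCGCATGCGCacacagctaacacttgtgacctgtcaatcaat
H13: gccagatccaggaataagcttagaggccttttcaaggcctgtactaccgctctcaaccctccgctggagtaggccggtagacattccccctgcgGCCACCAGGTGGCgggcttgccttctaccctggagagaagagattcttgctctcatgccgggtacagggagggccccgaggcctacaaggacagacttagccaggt
The YY1 match in Peg3, the CTCF match in Meg3 and the CTCF matches in H13 lay under footprints in both libraries. The H13 site, also within 500 bp of a start of the annotated noncoding gene Gm26841, had 12.0 and 6.98.

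**Figure D4:**
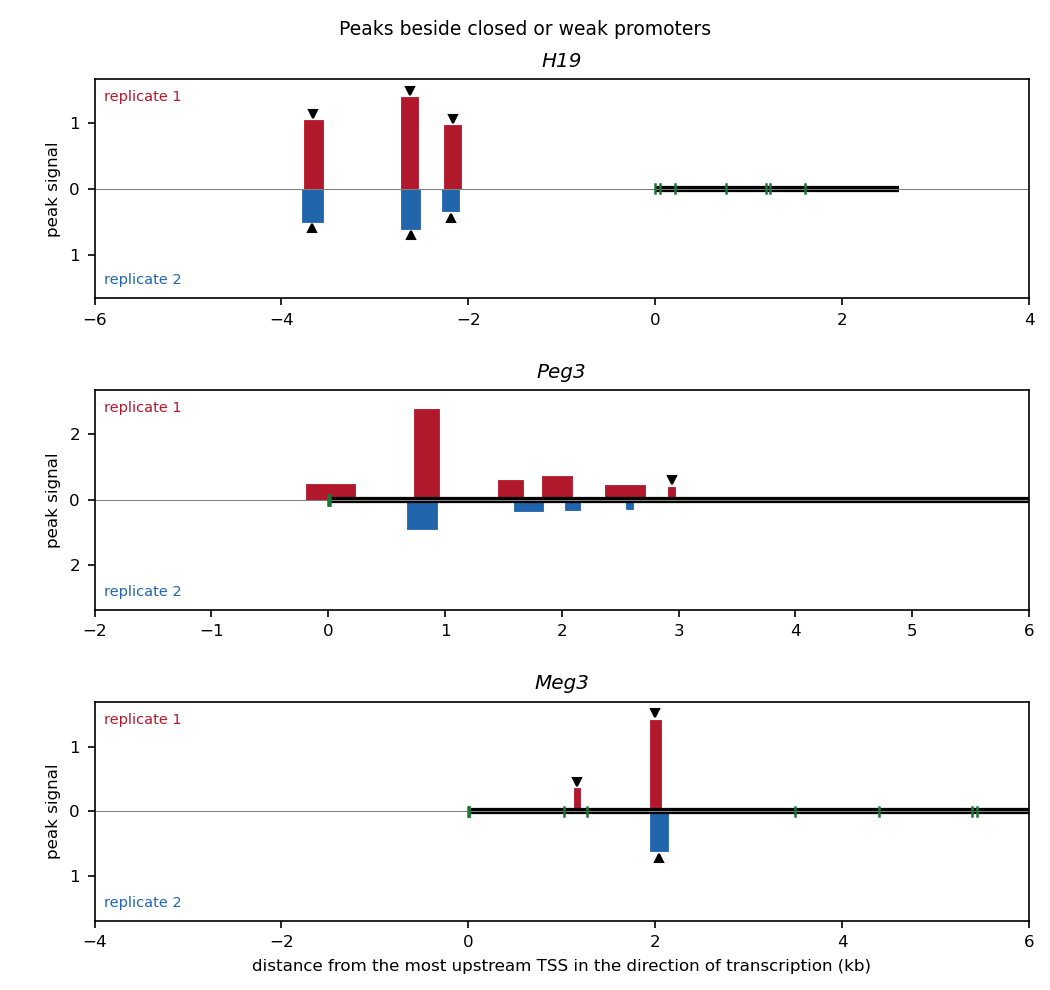
Peaks near H19, Peg3 and Meg3 by distance in kb from the most upstream TSS, replicate 1 upward and replicate 2 downward (signal in deposited units); black bars are the genes, green ticks TSSs and triangles peaks in a site with a CTCF consensus match. H19 has no peak over the gene and 3 upstream, and the strongest peaks of Peg3 (2.79 and 0.892) and Meg3 (1.41 and 0.624) lie beyond 500 bp of a TSS.

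In the other clusters the strongest sites in both libraries outside all annotated promoters were as follows. Near Trappc9, 6457 bp from its TSS and in no annotated gene, chr15:73067461-73067860 had 33.9 in replicate 1 and 10.5 in replicate 2, above every promoter of the 38 genes in replicate 1. Inside Inpp5f, 1882 bp past its internal start, chr7:128690281-128690460 had 8.63 and 5.75. Inside Peg10, 1945 bp from its TSS, chr6:4749241-4749460 had 7.63 and 2.62.
The Impact, Gnas and Phlda2 sites were next. A site 917 bp from an Impact start had 5.74 and 2.06, an intronic Gnas site 14462 bp from the nearest start had 5.08 and 2.50, and a site 2891 bp from Phlda2 had 4.95 and 2.03.
Weaker ones were an intronic H13 site with 3.69 and 1.93, an intronic Grb10 site with 2.52 and 1.26, an Airn site with 1.56 and 1.69, a Copg2 site with 1.19 and 0.783, a Plagl1 site with 0.941 and 0.967 and a site 19798 bp from Mkrn3 with 0.941 and 0.913. Upstream of Commd1, in no annotated gene, chr11:22987401-22987600 had 1.13 in replicate 1 and 3.78 in replicate 2, the reverse of the usual order of the libraries. The Nnat, Nap1l5 and Slc38a4 clusters had none.

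Footprints, short stretches protected from cutting within open chromatin, lay in the promoter in both libraries for 19 of the 22 protein-coding imprinted genes with a promoter peak in both, against 97.5% of all such protein-coding genes. The 3 without were Mest, Plagl1 and Snrpn, each with footprints in replicate 1 (6, 4 and 3) and 0 in replicate 2. All 3 noncoding RNA genes open in both libraries, Kcnq1ot1, Peg13 and Airn, had them. With peaks at or above the library's median signal, 15 of the 38 genes were open in both libraries. All 15 had a promoter footprint in both, against 99.77% of such protein-coding genes. The promoter peaks of Mest, Plagl1 and Snrpn were below that median in each library. Replicate 1 had 404781 footprints in all and replicate 2 had 276537.

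Consensus matches were counted on both strands. In 46 RefSeq promoters of 30 imprinted genes, each 300 bp long, TGCCGC was present in 12 (26.1%), against 11.6% of 32851 promoters. The CTCF consensus of 12 letters was present in 4 (8.70%), against 3.20%, namely at Commd1, Copg2, Grb10 and H13. The NRF1 consensus was in 3 (6.52%), against 1.75%, and the YY1 consensus in 3 (6.52%), against 6.05%. Some of the 46 promoters overlap, among them windows of Mest that share their TGCCGC matches. Counted by gene, TGCCGC was in 11 of the 30, and no share by gene was taken over all genes.
The 147 sites open in both libraries, promoter sites included, were read over their central 200 bp. TGCCGC was present in 28 (19.05%), against 8.15% of all 73150 such sites, and CTCF in 20 (13.6%), against 10.3%. Of the 20 sites with a CTCF match, 17 (85.0%) had a match under a footprint in both libraries, against 85.3% over all sites. Of the 28 with TGCCGC, 8 (28.6%) did, against 29.3%. TGCCGC contains a CpG, imprinted promoters were CpG-rich as given above, and the part of CpG content in these shares was not tested.

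The replicates ranked the imprinted promoters alike. Over the 25 genes with a peak in both libraries, Spearman's rho between the signals of replicates 1 and 2 was 0.966, a description over genes of which some share a peak. The median log2 ratio of replicate 1 to replicate 2 was 1.24 for these genes, against 1.25 over all 16983 genes with a promoter peak in both (SD 0.46). Kcnq1ot1 had the lowest ratio, with 0.94 less than the median of all genes on the log2 scale. Phlda2 had 0.70 less, but its strongest promoter peaks in replicates 1 and 2 were not the same peak. Its promoter held a pair of sites open in both libraries, with 0.581 in replicate 1 and 0.314 in replicate 2 at one and 0.536 and 0.398 at the other. For Gnas, too, the strongest promoter peak was a different one in each library. The highest ratio was that of Ube3a, 0.34 above the median of all genes.
With 1 library a mouse there is no estimate of error for a single gene. The 9 genes without a peak in replicate 2 were weak in replicate 1, from 0.0638 to 0.701, and a closed promoter and a lower depth in replicate 2 cannot be told apart.

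**Figure D5:**
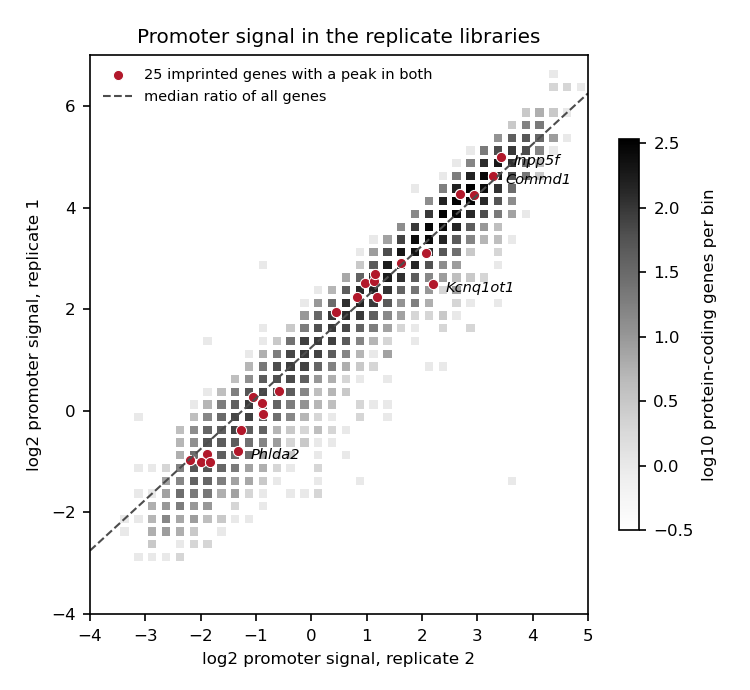
Log2 promoter signal in replicate 1 (y axis) against replicate 2 (x axis) for the 25 imprinted genes with a peak in both libraries (red), over all protein-coding genes (grey squares, shaded by the number of genes per bin); the dashed line is the median ratio of all genes, 1.25 on the log2 scale. The imprinted genes follow the cloud, and Kcnq1ot1 lies furthest below the line, followed by Phlda2, whose values come from different peaks in the libraries.

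Of 50 other imprinted genes, 31 (62.0%) were open in both libraries, 9 in replicate 1 only and 10 in neither, and the share open in both was close to the 60.7% of all protein-coding genes. The highest by the mean of the libraries were Chrac1, a histone-fold subunit of chromatin remodelling complexes, with 21.9 in replicate 1 and 6.36 in replicate 2, Bcl2l1, an inhibitor of cell death, with 18.1 and 7.33, and Nap1l4, a histone chaperone gene, with 14.0 and 9.38. The genes without a peak were Ins2, Slc22a18, Th, Rtl1, Ddc, Gpr1, Zim2, Cpa4, Slc22a2 and Dcn. Nespas, the antisense RNA of the Gnas region, had 3.96 and 2.04.

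Of 23 genes for factors that set or keep imprints, 20 were open in both libraries, against 60.7% of all protein-coding genes. The highest by the mean of the libraries were Yy1, a zinc finger factor, with 30.7 in replicate 1 and 8.54 in replicate 2, Kdm1b, a histone demethylase needed for imprints in the egg, with 22.3 and 10.3, and Uhrf1, which brings the maintenance methyltransferase to newly copied DNA, with 20.7 and 8.81. Zfp57 itself had 0.308 in replicate 1 and no peak in replicate 2, Dnmt3l, a cofactor of methylation in germ cells, had 0.301 in replicate 2 only, and Dppa3, an egg factor, had none.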

How the data were processed

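DNase-seq of 2 spleen libraries of 1 group was read from the deposited files. Per the deposited README files, peaks, footprints and false discovery rates of the cut rate were made for each library alone on mm10 and not pooled. No aligner or caller is named in the labels or file headers used here. Peak signal was used as deposited by the authors, a density scaled within a library by a constant that is not stated. The false discovery rate values (p-value scale), as deposited, cover only stretches below 0.05, and the footprint lists, as deposited, carry the constant p-value threshold 0.01 in every line, so footprints were counted and not ranked. The depth of the libraries is unknown.

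Genes and TSSs came from GENCODE release M21 on mm10, and promoter sequences from RefSeq (GRCm38.p6), which matched 30 of the 38 genes by symbol. A peak belonged to a promoter when it overlapped by at least 1 bp the 500 bp either side of any TSS, to a gene when it overlapped it, and to a flank within 10 kb. TSSs whose windows touched were taken as 1 group. Overlapping peaks of replicates 1 and 2 became 1 site. Counts and medians of the imprinted genes were set beside those of all genes, with no test, since there is 1 group and no contrast. The imprinted genes, their classes and the other lists were chosen with earlier results of these data known. Full values were given for the 3 genes with the highest mean promoter signal of each parental class, for all genes with a promoter peak in 1 library or in none, and for the strongest non-promoter site of each cluster. Alternatives were other windows, the most upstream TSS, the shorter peak list, peaks at or above the median, other flanks and placements, and each library alone. The interval steps, run with Python 3.11.15, numpy 2.4.6, pandas 2.3.3 and bedtools 2.31.1, recovered 200 of 200 promoter peaks planted at known positions.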

Additional observations from a re-analysis of the deposited data

How the results depend on the processing

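Of 87 values recomputed for 11 results under the alternatives, 71 stayed within 1.5 times the reported count or within the spread between the libraries. With peaks at or above the library's median signal, open promoters came to 15 of 38 genes in both libraries, to 5 paternally and 2 maternally expressed genes and to 6 with an egg-methylated region, sites inside genes to 75 against 136, and sites in the flanks to 22 against 41. With the most upstream TSS, 3 genes with isoform-dependent imprinting and 8 with an egg-methylated region were open in both. The shorter peak list left 2 maternally expressed genes and 27 flank sites. Flanks of 5 kb held 19 sites and flanks of 25 kb held 70, since they cover less and more sequence. The cause of the other shifts was not tested. The mean over the libraries of the median percentile was 34.3 for the imprinted genes with a peak among all genes with a peak. An alternative chosen after seeing the data, which ranked the 31 protein-coding ones among all protein-coding genes with closed promoters lowest, gave 46.8, with the gene set, the background and the closed promoters all changed. RefSeq starts, also added after seeing the data, gave 27 open promoters, against 25. Leaving out a library in turn gave 25 to 34 open promoters, 11 to 17 among genes without an egg-methylated region, 157 to 260 sites inside genes and 47 to 93 in the flanks, with the higher value from replicate 1 alone. No paired analysis was possible because there is 1 group and no contrast. The depth behind the signals is unknown, so an absent peak is one not called in that list.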

Other observations

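In the 77.7 kb between the end of Dlk1 and the start of Meg3, replicate 1 had 38 peaks, and replicate 2 had 0. Their signals had a median of 0.113 and reached 0.390, and 3.99% of all peaks of replicate 1 were weaker than that median. In the 100 kb window that holds the Dlk1 start, replicate 1 had 45 peaks and replicate 2 had 5, a difference of 40 that 64 of 27229 such windows of the genome reached or passed. The largest difference in any window was 92, and the median was 0. In the window of Zrsr1 and Commd1 the counts were 31 and 14, a difference reached by 347 windows.

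Magel2, with a promoter peak in replicate 1 only, had 6 further weak sites along its exon in replicate 1, each of 1 or more peaks and with a strongest signal from 0.161 to 0.255, and none there in replicate 2. In the Snrpn cluster, which spans 3191 kb from Ube3a to Mkrn3, 0.533 sites open in both libraries lay per 100 kb, against 2.69 per 100 kb over the genome.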
